A study of Mus musculus with 6 samples.

Results

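The AP-1 and immediate early genes described here are Fos, Fosb, Fosl1, Fosl2, Jun, Junb, Jund, Atf3, Ier2 and Egr1, 10 of 21887 protein-coding genes in the RefSeq annotation of GRCm38. They were chosen by name, and every FLAG peak inside each gene or within 100 kb of it was taken from the peak lists of Onecut3-OE cells. The data are ChIP-Seq from p53 KO mouse embryonic fibroblasts (MEFs) of strain C57BL/6, primary cells taken from embryos, in which doxycycline at 100 ng/mL switched on FLAG-tagged Onecut3 from a retroviral tetracycline-inducible vector. Onecut3 is a transcription factor with a CUT domain and a homeodomain. The anti-FLAG M2 antibody was used on 3 Onecut3-OE libraries (replicates 1, 2 and 3). The series holds 6 libraries, the others being 1 control FLAG library without doxycycline and, from Onecut3-OE cells, 1 normal mouse IgG and 1 input library. All 6 share the loss of p53. By their names, the peaks were called library by library against the input. No peaks of the uninduced FLAG or the IgG library entered the results, so signal that the antibody gives without induced Onecut3 was not subtracted, and binding could not be compared between conditions.

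AP-1 is a dimeric transcription factor made of a Jun protein with a Fos, another Jun or an ATF protein, joined through basic leucine zippers, and it binds short palindromic DNA elements. Many of its genes, with Ier2 and Egr1, are immediate early genes: serum, growth factors or stress induce their transcription within minutes in fibroblasts, without new protein synthesis. Fos and Egr1 respond in this way through serum response factor and its ternary complex partners.

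The question put to these lists was where Onecut3 FLAG signal lay around each gene and how often the replicates repeated it. Around the 10 genes the lists held 75 peaks, 30 in replicate 1, 21 in replicate 2 and 24 in replicate 3. The whole lists of replicates 1, 2 and 3 held 31600, 12856 and 24822 peaks. Replicate 2 had the shortest list, so a count or a missing peak does not weigh alike in each. Joining peaks of different lists with 1 bp or more in common gave 54 regions. All 10 genes had a region in some list (background 91.0%), and 7 had one in 2 or 3 lists (background 65.4%). Only 5 regions had a peak in every list, and these are called shared. They lay at Fosl2, Ier2 (2 regions), Fosb and Egr1. Thus 4 of 10 genes had a shared region, against 40.6% of all protein-coding genes, so the share of the 10 was at the genome-wide level. Among genes no longer than Fosl2, the longest of the 10 at 21369 bp, it was 36.1%.

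The recurrence of the peaks was also close to that of the whole series. Of the 54 regions, 38 (70.4%) were in 1 list, 11 (20.4%) in 2 lists and 5 (9.26%) in 3 lists. Of all 50844 regions of the series, 74.0% were in 1 list, 15.9% in 2 and 10.1% in all 3. Each peak carries a q value, its false discovery rate within the list as MACS2 gave it. The q was at most 0.05 for 13 of 30 peaks in replicate 1 (background 33.6%), 15 of 21 in replicate 2 (71.0%) and 13 of 24 in replicate 3 (47.7%).

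**Figure D1:**
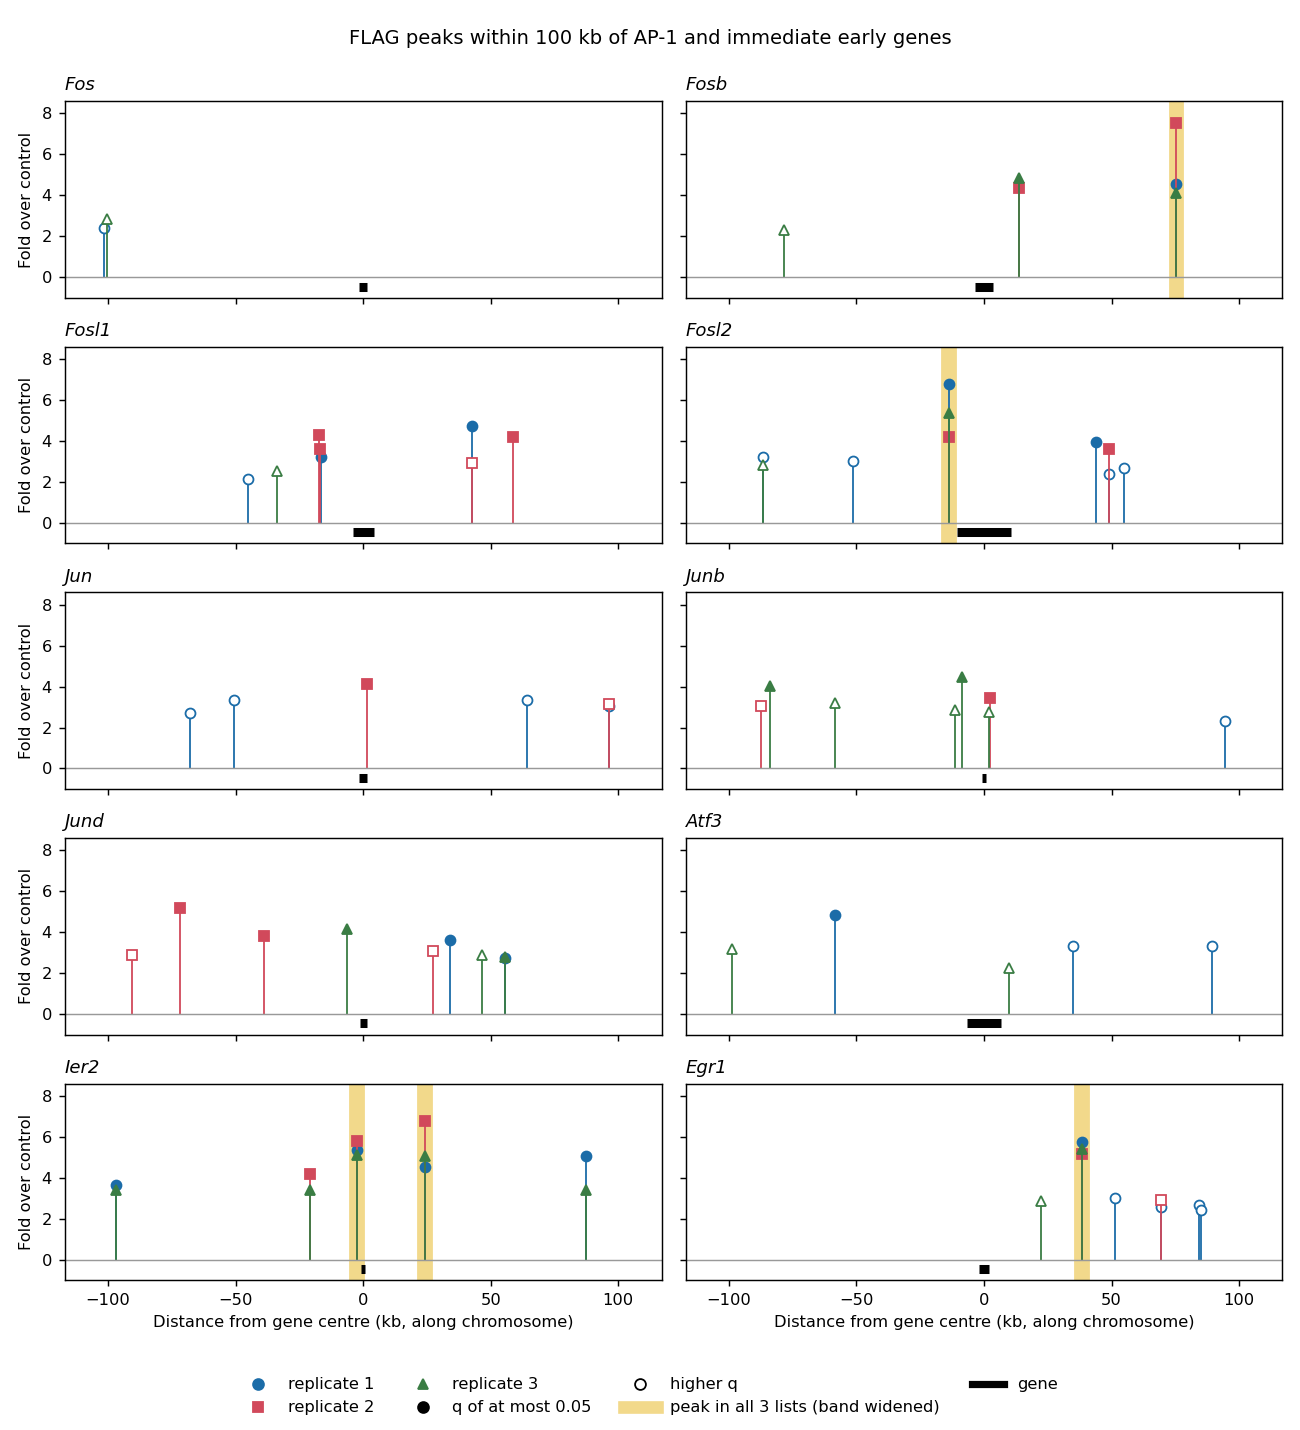
FLAG peaks of replicates 1, 2 and 3 around each of the 10 genes, with distance from the gene centre along the chromosome in kb on the x axis and the fold over the control at the peak summit on the y axis. Filled symbols have q of at most 0.05, open symbols a higher q, black bars are the genes, and yellow bands, wider than the regions they mark, stand at the 5 regions with a peak in all 3 lists; Fos has no peak nearer than 98.5 kb.

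The one promoter with a peak was that of Jun, and its sequence is shown for that reason, beside that of Fos, whose promoter had none. Jun and Fos encode c-Jun and c-Fos, the prototype AP-1 pair. For 7 of the 10 genes (all but Fosl1, Ier2 and Egr1) the promoter table used here gave the strand and a window from 250 bases before to 50 after the start of transcription. The replicate 2 peak at Jun spanned chr4:95052138-95052333, with 111 bases before the start and 85 from the start onward. The 250 bases before each start on GRCm38.p6 (RefSeq), 5′ to 3′ on the strand of the gene, were chr4:95052223-95052472 on the minus strand for Jun and chr12:85473640-85473889 on the plus strand for Fos. Capitals mark the bases inside the replicate 2 peak in Jun and a TATAAA match in Fos.
Jun: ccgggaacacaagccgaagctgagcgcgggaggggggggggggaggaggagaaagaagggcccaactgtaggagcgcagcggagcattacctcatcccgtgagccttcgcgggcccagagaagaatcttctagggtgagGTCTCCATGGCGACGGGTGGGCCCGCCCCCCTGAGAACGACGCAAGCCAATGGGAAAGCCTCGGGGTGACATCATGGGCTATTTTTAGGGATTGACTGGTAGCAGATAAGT
Fos: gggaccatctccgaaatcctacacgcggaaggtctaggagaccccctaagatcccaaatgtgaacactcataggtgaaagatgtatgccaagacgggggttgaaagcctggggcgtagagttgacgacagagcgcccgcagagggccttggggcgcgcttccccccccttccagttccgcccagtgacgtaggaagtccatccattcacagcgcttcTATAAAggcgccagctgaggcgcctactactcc

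Short motifs were searched on both strands of these 250 bases for the 7 genes. The AP-1 site TGACTCA, the CArG box of serum response factor and the ONECUT core letters ATCAAT and ATCGAT had no match in any of the 7. They are held by 4.46%, 1.47%, 6.72% and 0.728% of the 32851 promoters of the table, respectively. Bases farther upstream were not searched, nor were Fosl1, Ier2 and Egr1, so an element lying there would not have been seen. TATAAA was found in Fos alone among the 7, with its first base 33 bases before the start, and is held by 12.4% of promoters. TGACATC, the first letters of the variant AP-1 element known from the Jun promoter, was added to the search after the sequence was seen. It was found in Jun alone, 45 bases before the start and inside the replicate 2 peak, and 4.83% of promoters hold it. These matches are letters only, and none of them was measured as a binding site here. Among the 7, only the promoter of Jun had a peak. The 85 bases of that peak from the start onward were not searched. No sequence of the shared regions was available, so their motifs were not read.

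Jun had its promoter peak in replicate 2 only. The peak had a fold over the control of 4.13, which was at percentile 64.3 of replicate 2, and q = 0.00144. Its summit lay 14 bases before the start of transcription, and replicates 1 and 3 had no peak in the promoter or the gene. A promoter window with a peak in replicate 2 was found for 2.33% of the 27025 genes in the table, and with a peak in any list for 5.07%. For replicates 1 and 3 these shares were 3.48% and 3.08%, and 0 of the 7 genes had such a peak there. Jun was thus the only one of 7 genes with a promoter peak. It was also the only one of the 10 genes with a region overlapping the gene itself, against 37.6% of all genes and 16.9% of genes no longer than Fosl2. Replicate 3 had no peak within 100 kb of Jun. Replicate 1 had 4, with folds of 2.73, 3.33, 3.33 and 3.03 and q of at least 0.0673. The last of these, 94.6 kb upstream of the start, was met by a replicate 2 peak with a fold of 3.14 (q = 0.122).

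Fosl2 had the shared region with the highest pileup of the 5 in replicate 1. Fosl2 encodes Fra-2, a Fos family protein without the strong transactivation domain of c-Fos. The region, chr5:32133197-32133517, lay 2.96 kb before the gene, with its mean summit 3.12 kb upstream of the start of transcription. Replicates 1, 2 and 3 gave it folds of 6.76, 4.20 and 5.38, with q values of 2.17e-12, 0.000191 and 2.52e-07, and a mean of 5.45 ± 1.28 (SD, n = 3). These folds were at percentiles 99.2, 71.0 and 95.6 of their lists, so the region was near the top in replicates 1 and 3 but not in replicate 2. The summits of the 3 peaks lay within 80 bp. Fosl2 was the nearest gene, since the next, Babam2, was 48.2 kb away.

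Another 5 regions lay within 100 kb of Fosl2, in 1 or 2 lists each. The one 59.5 kb downstream of the start had folds of 2.41 in replicate 1 and 3.63 in replicate 2, with q of 0.992 and 0.0120. The one 75.8 kb upstream, inside Babam2, had folds of 3.22 in replicate 1 and 2.85 in replicate 3, with q of 0.0673 and 0.330. The other 3 were in replicate 1 alone, with folds of 3.03, 3.94 and 2.68 and q of 0.197, 0.00517 and 0.481. The one with a fold of 3.94 lay 54.7 kb downstream of the start, with Fosl2 as its nearest gene.

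Ier2 was the only one of the 10 genes with 2 shared regions, while 14.9% of all genes had at least 2. Each of the 5 regions of Ier2 was in at least 2 lists, for which a share over all genes is not given. Ier2 encodes a small nuclear protein induced early by growth factors. The nearer shared region, chr8:84659370-84659729, lay 1.60 kb from the lower end of the gene, and Ier2 was its nearest gene. The folds by replicate were 5.37, 5.80 and 5.13, with q values of 4.85e-07, 9.99e-09 and 5.17e-06 and a mean of 5.43 ± 0.338 (SD, n = 3). The 3 folds were at percentiles 96.7, 93.7 and 95.1, so the lists placed this region alike.

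The farther shared region of Ier2, chr8:84686080-84686600, lay 23.2 kb from the higher end, where the genes Nacc1 and Trmt1 overlap it. Its folds were 4.55, 6.76 and 5.06 in replicates 1, 2 and 3, a mean of 5.46 ± 1.16 (SD, n = 3), and its highest q was 6.83e-05. Replicate 2 was the highest here and the lowest at Fosl2, so no replicate was high throughout. The other 3 regions were each in 2 lists with q of at most 0.05 in both. The one 19.8 kb from the lower end had folds of 4.18 in replicate 2 and 3.42 in replicate 3. Those inside Cacna1a, 95.9 kb away, and Nfix, 86.3 kb away, had folds of 3.63 and 5.08 in replicate 1 and 3.42 at both in replicate 3.

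Egr1 had 1 shared region, and all its regions lay on one side of the gene. Egr1 encodes a zinc finger transcription factor that is induced together with Fos. The region, chr18:34901266-34901570, lay 36.3 kb from the gene but 1.22 kb from Etf1, which encodes a translation termination factor. Its folds were 5.75 (q = 2.61e-07), 5.18 (q = 5.04e-06) and 5.41 (q = 4.18e-06), a mean of 5.45 ± 0.291 (SD, n = 3), at percentiles 97.8, 88.9 and 96.0. Of all 5 shared regions it had the smallest SD of fold between lists. By percentile within the lists, the nearer region of Ier2 lay closer together, at 96.7, 93.7 and 95.1. Of the other 5 regions of Egr1, the one 67.4 kb away had folds of 2.59 in replicate 1 and 2.90 in replicate 2. The remaining 4 were each in a single list. Their folds lay between 2.42 and 3.03, with q of at least 0.197, and Etf1 or Hspa9 was nearer than Egr1 to every one of the 6 regions.

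Fosb had 3 regions, 1 of them shared. Fosb encodes the Fos family protein FosB. The shared region, chr7:19381691-19382060, lay 71.6 kb from the gene inside Ercc2, which encodes a DNA helicase of nucleotide excision repair. Its folds by replicate were 4.54, 7.51 and 4.14, with q values of 0.000257, 6.77e-13 and 0.00301. Replicate 2 stood well above the others, so the mean of 5.40 had an SD of 1.84 (n = 3), the largest of the 5. The summits nevertheless lay within 11 bp. Nearer to the gene, 10.2 kb upstream of its start, a region with Fosb as nearest gene had folds of 4.35 in replicate 2 (q = 0.000201) and 4.84 in replicate 3 (q = 2.68e-05) and none in replicate 1. The remaining region, in replicate 3 alone, had a fold of 2.32. Chromosome 7 was sparse in peaks, and 21.2% of its genes had a shared region within 100 kb.

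By mean fold the 5 shared regions could not be ordered. Their means ran from 5.40 to 5.46, while the SDs between lists ran from 0.291 to 1.84. All 5 were above the median mean fold of all 5114 shared regions, 4.12, and between 12.9% and 13.6% of shared regions had a mean fold at least as high. Each had q of at most 0.05 in every list. With only such peaks kept, the same 4 genes had a shared region, against 29.6% of all genes. With a fold of at least 5 in each list, only Ier2, at the nearer region, and Egr1 kept one, against 7.02% of all genes.

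**Figure D2:**
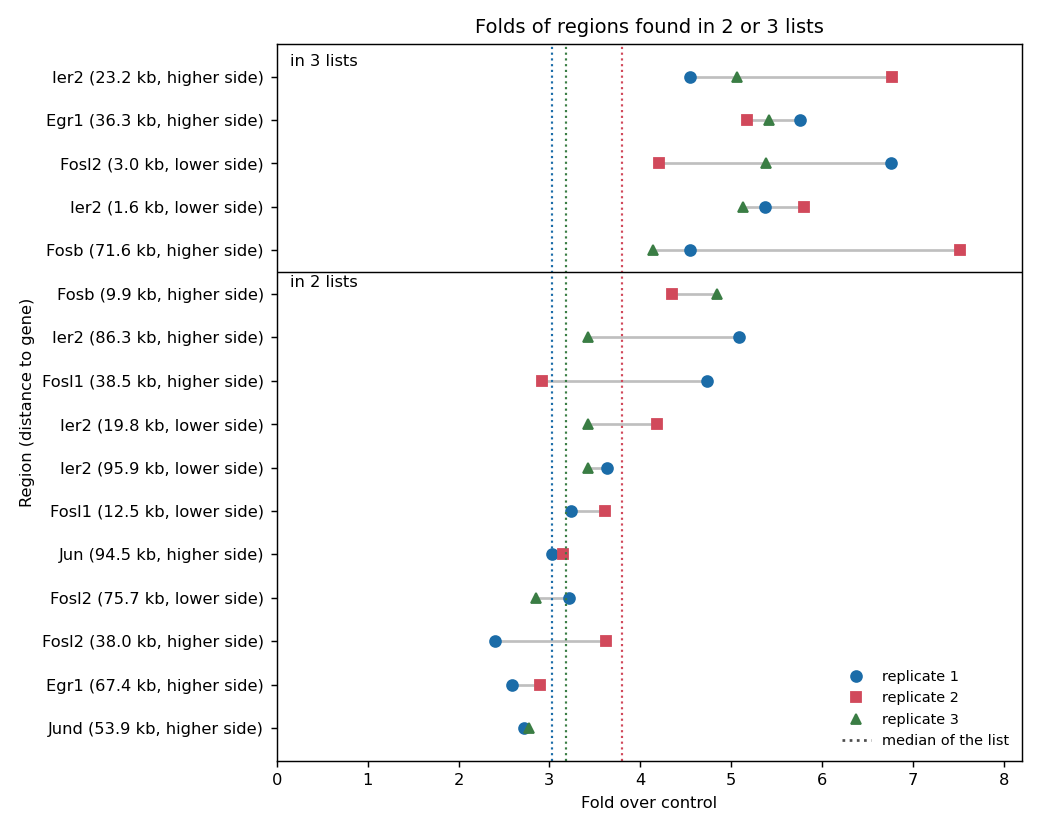
Folds over the control (x axis) in replicates 1, 2 and 3 for the 16 regions around the 10 genes that had a peak in 2 or 3 lists (y axis, with the distance to the gene and the side by chromosome coordinate), ordered by mean fold, with grey lines from the lowest to the highest fold. Dotted lines are the medians of all peaks in each list (3.03, 3.79 and 3.18); every fold of the 5 shared regions is above the median of its list.

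Fos, Fosl1, Jun, Junb, Jund and Atf3 had no shared region within 100 kb. Fos had the fewest regions, with 2, both at the edge of the window in or beside Tmed10. Replicate 1 had a peak there with a fold of 2.42 (q = 1), and replicate 3 one with a fold of 2.87 (q = 0.404), 968 bp apart. Of all genes 82.3%, and of the genes on chromosome 12 71.4%, had at least as many regions as Fos. Just outside the window, 143 kb from Fos, a shared region lay inside Jdp2, which encodes a bZIP protein that dimerises with Jun proteins. Its folds were 3.63, 3.07 and 3.82 in replicates 1, 2 and 3.

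Fosl1, which encodes Fra-1, had 6 regions on chromosome 19, where peaks were dense: 89.4% of the genes of that chromosome had at least as many. Of the genes on chromosome 19, 71.9% had a shared region within 100 kb, and Fosl1 did not. The nearest region, 12.5 kb from its lower end, had folds of 3.24 in replicate 1 (q = 0.0265) and 3.61 in replicate 2 (q = 0.00513). Next to it, 178 bp apart, replicate 2 had another peak with a fold of 4.27 (q = 8.58e-05). The region 38.5 kb from the higher end, beside Cfl1 (cofilin), had folds of 4.73 in replicate 1 (q = 1.04e-05) and 2.92 in replicate 2 (q = 0.264). Another replicate 2 peak, inside Snx32, had a fold of 4.21 (q = 0.000352), and the other 2 regions had folds of 2.16 and 2.55. No region had Fosl1 as its nearest gene.

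Junb and Jund had the most regions of the 10, with 8 each, and almost all were in a single list. Both lie on chromosome 8, where 41.4% of genes had at least as many regions and the median was 7. Of all genes, 23.7% had at least as many. JunB and JunD are the other Jun proteins, of which JunD is the one that cells make most constantly. At Junb all 8 regions were in 1 list, 5 of them in replicate 3. Upstream of its start, replicate 3 had a peak 0.944 kb away with a fold of 2.76 (q = 0.232) and replicate 2 one 1.33 kb away with a fold of 3.42 (q = 0.0356). These were separated by 158 bp and so did not count as one region. The highest fold at Junb was 4.46 (q = 0.000656) in replicate 3, inside Rnaseh2a, followed by 4.04 (q = 0.00140) in the same list beside Gcdh. The other 4 regions, inside Gcdh, Mast1, Rnaseh2a and Dhps, had folds between 2.32 and 3.18 and q of at least 0.142.

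At Jund 1 of 8 regions was in 2 lists, inside Rab3a 53.9 kb away, with folds of 2.72 in replicate 1 (q = 0.0296) and 2.77 in replicate 3 (q = 0.0383). The expected background there was 2.76 and 2.74 times the lowest of the list, the highest ratios among the 54 peaks of replicates 1 and 3 at the 10 genes. Replicate 2 peaks have no such value. A peak 5.00 kb upstream of the start of Jund was in replicate 3 alone, with a fold of 4.14 (q = 0.00301). The highest fold at Jund, 5.20 in replicate 2 (q = 4.48e-06), was also in that list alone and lay 1.85 kb from Gdf15. The other 5 regions, all in a single list, had folds between 2.87 and 3.82, and 2 of them had q of at most 0.05, one of replicate 2 inside Pgpep1 (q = 0.0105) and one of replicate 1 inside Pde4c (q = 0.0201).

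Atf3 had 5 regions, each in 1 list. Atf3 encodes a stress-induced bZIP protein that pairs with Jun proteins and often represses transcription. The nearest, 3.14 kb upstream of its start, was in replicate 3 with a fold of 2.23 (q = 1). The highest fold, 4.84 (q = 5.10e-05), was in replicate 1 alone and lay nearer to Batf3, another bZIP gene, at 9.27 kb. The other 3 had folds of 3.33, 3.33 and 3.18, with q of at least 0.0673. Replicate 2, whose list of 12856 peaks was the shortest, had no peak within 100 kb of Atf3 or of Fos. The share of all genes without a replicate 2 peak is not given, so this only describes these genes.

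Of the 54 regions around the 10 genes, 10 lay within 10 kb of the gene, 20 between 10 and 50 kb and 24 farther. Within 3 kb lay 5 regions at 4 genes (Jun, Junb with 2, Fosl2 and Ier2), against 45.5% of all genes with such a region. The 2 shared ones, at Fosl2 and Ier2, compare with 11.5% of all genes and 5.26% of genes no longer than Fosl2 that had a shared region inside or within 3 kb. With 10 genes, 1 gene more or less moves the share by 10 percentage points. One of the 10 genes was the nearest protein-coding gene for 12 of the 54 regions, 2 of them shared, the regions at Fosl2 and Ier2 within 3 kb. The distance bins and the nearest-gene count were not computed for other genes, so they are descriptions of these regions.

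**Figure D3:**
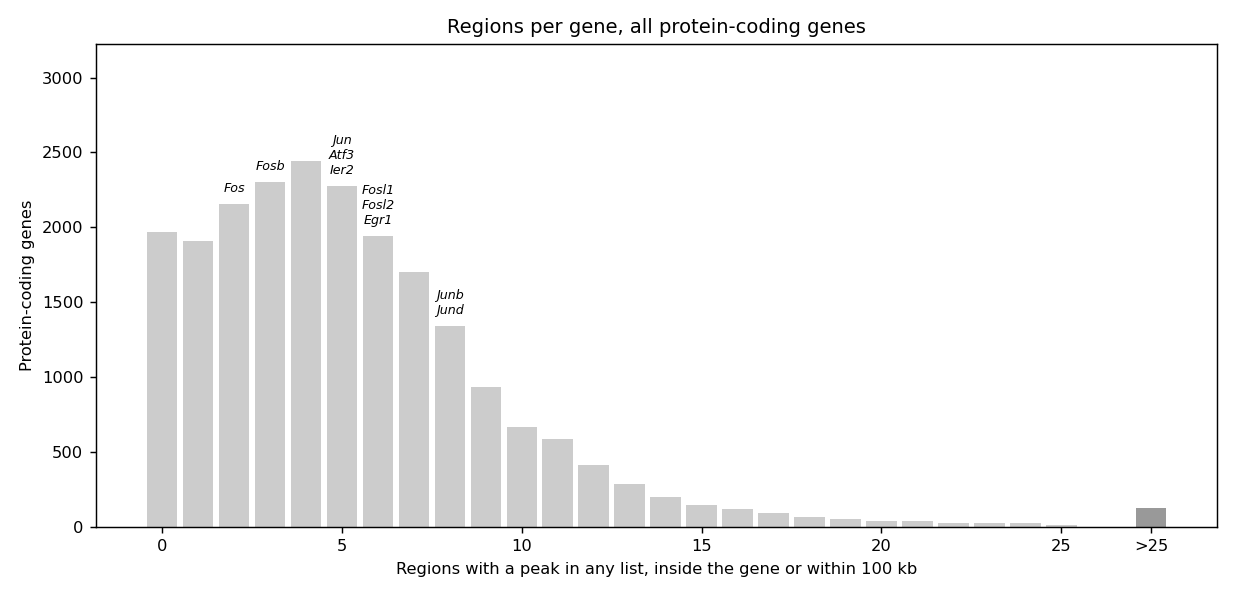
Number of protein-coding genes (y axis) by the number of regions with a peak in any list inside the gene or within 100 kb (x axis), with genes over 25 regions in the darker bar and the 10 genes named above their bars. The 10 genes had 2 to 8 regions with a median of 5.5, and the median over all genes was 5.

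The height of the peaks was small in fragments. The pileup (ChIP fragments over the summit) and the background expected from the control were solved from the fold and p of a peak. This was done for all 54 peaks of replicates 1 and 3 at these genes, and replicate 2 was left out. The pileup had a median of 11 fragments and ran from 6, at Atf3, to 27, at Fosl2. The background of 27 of the 54 peaks was within 1% of the lowest of its list, 2.30 fragments in replicate 1 and 2.14 in replicate 3. At the shared regions the pileup was 27 and 20 at Fosl2 in replicates 1 and 3, 19 and 17 at the nearer region of Ier2, 16 and 21 at the farther one, 18 and 16 at Egr1 and 14 and 12 at Fosb. At Egr1 and Fosb the background was at the lowest of the list, and at Fosl2 it was 1.36 times that value in both lists. The fold has 1 added to pileup and background, so it lies below their plain ratio. The lists give no read totals, so the depth of the libraries is unknown.

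**Figure D4:**
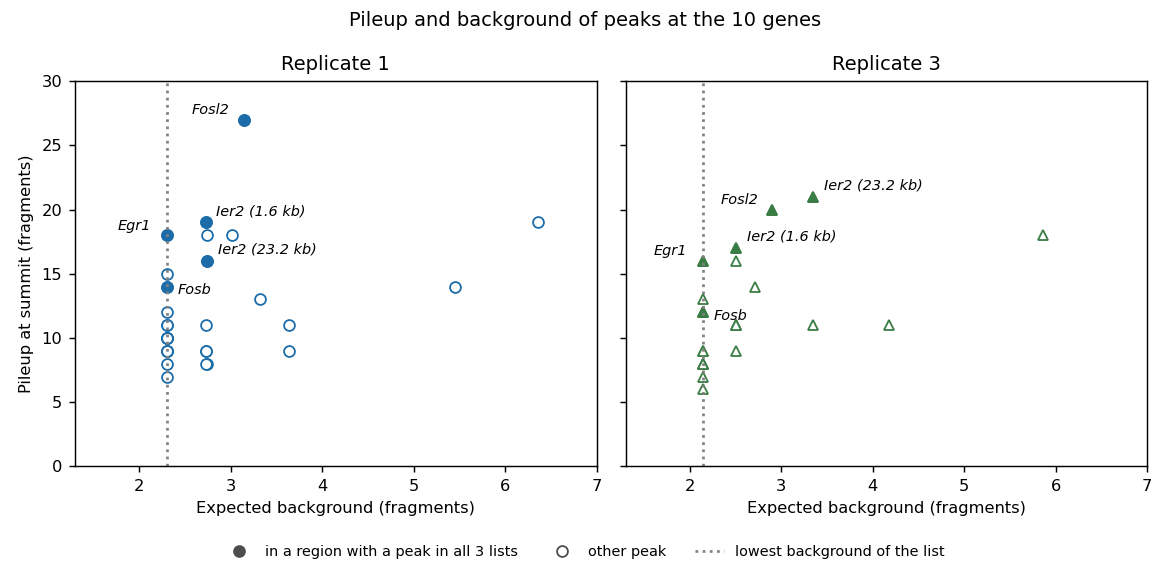
Pileup at the summit (y axis, fragments) against the expected background (x axis, fragments) for the peaks of replicates 1 and 3 within 100 kb of the 10 genes. Filled symbols belong to the 5 shared regions, open symbols to others, and the dotted line is the lowest background of the list; the pileups of shared regions lie between 12 and 27 fragments, and those at Fosl2 are 27 and 20.

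Genes that act with AP-1 were taken from 4 further lists of 68 genes in all, of which 31 had a shared region within 100 kb (45.6%, background 40.6%) and 4 had one inside or within 3 kb (5.88%, background 11.5%). Of 17 bZIP partners and relatives 10 had one within 100 kb and 2 within 3 kb. These 2 were Jdp2, described above, and Mafa, whose region lay 0.994 kb from the gene with folds of 3.25, 4.35 and 2.32. Of 13 upstream factors and kinases 5 had one within 100 kb and 1 within 3 kb. It lay inside Mrtfa, which encodes an actin-regulated coactivator of serum response factor, with folds of 3.57, 4.21 and 4.37.

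Of 27 other immediate early genes 12 had a shared region within 100 kb and 1 within 3 kb, which lay inside Dusp5. Dusp5 encodes a nuclear phosphatase that inactivates ERK. Its folds were 4.30 in replicate 1, 6.76 in replicate 2 and 10.9 in replicate 3, a mean of 7.32 ± 3.35 (SD, n = 3), with the summit 4.05 kb downstream of the nearest start. Dusp5 lies on chromosome 19. Of 11 AP-1 target genes 4 had one within 100 kb and none within 3 kb. The highest was upstream of Spp1 (osteopontin), 6.47 kb from its start, with folds of 6.37, 4.91 and 4.57. Timp1, Plaur and Il6 followed, with mean folds of 4.94, 4.78 and 3.04 at regions 87.1, 94.8 and 38.9 kb away. The region counted for Timp1 lay inside another gene, Uxt.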

How the data were processed

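Peak lists of 3 Onecut3-OE FLAG ChIP-Seq libraries were used. Per the submitters' processing notes, which give no roles, the tools included MACS2 (2.1.0), Bowtie2 (2.2.6) and deepTools (3.3.2), with GRCm38 as build. The lists deposited by the authors give each peak a fold, the ratio of ChIP pileup to expected background with 1 added to each. They also give −log10 of the p-value, −log10 of the q-value and a score, which is 10 times −log10 p cut to a whole number, as deposited. How reads were filtered is not stated, and the depth of the libraries is unknown. Since depth can shift a fold, each was also placed by its percentile within its list.

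Gene spans and promoters were from RefSeq (GRCm38.p6), the promoters with strand. Distances run from the gene end or, where so written, from the start of transcription. No test was made, since only 1 condition was used and its genes were chosen by name. Counts stand beside those over all genes. The members and lists were chosen with earlier results of these data known. Named were the 10 members, up to 4 genes per related list by mean fold, and genes holding a region or within 3 kb of it. Batf3 was named after its values were seen. No source says that the replicates were separate cultures, so their spread may be technical. Pileups of replicates 1 and 3 were solved within 0.001 in −log10 p, and replicate 2 was left out of the solving. Counting was run on simulated peaks planted to overlap in every list, so that they would be found was fixed beforehand. Solving was run on simulated pileups whose backgrounds did not reach the highest ones at these genes. Versions were matplotlib 3.10.9, scipy 1.17.1, pandas 2.3.3 and numpy 2.4.6 under Python 3.11.15.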

Additional observations from a re-analysis of the deposited data

How the results depend on the processing

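No paired analysis was possible because the groups share only replicate number 1 and 1 group was used. The number of genes with a shared region within 100 kb (4) and of shared regions (5) did not move with q of at most 0.05, a 50% overlap of both peaks, or a summit limit of 100 bp. Of all genes, 29.6%, 38.7% and 36.8% had a shared region within 100 kb at these settings. With a −log10 q of at least 5 or a fold of at least 5 there were 2 genes with a shared region. Of all genes, 7.30% and 7.02% had one at these limits. There were then 2 shared regions, 1 gene with one within 3 kb and 7 regions in any list. Related genes with a shared region numbered 5 and 4. With q of at most 0.05 there were 25 regions in any list. Within 50 kb there were 30 regions in any list, with 4 shared, 3 genes and 22 related genes. Within 10 kb there were 10, with 2 shared, 2 genes and 8 related genes. Within 1 kb 0 genes had a shared region. Shares over all genes are not given for the windows of 50, 10 and 1 kb, so these counts only describe the genes. With 1 replicate left out, when both others must share a region, there were 4 to 6 genes. The share over all genes then rose from 40.6% to between 47.3% and 56.6%. There were 2 genes within 3 kb throughout, 38 to 45 regions, 7 to 10 shared regions and 33 to 47 related genes. Shares over all genes within 3 kb are not given with 1 replicate left out or at the limits on fold and q. The 3 kb counts at those settings thus only describe the genes. Without replicate 2 there were 9 shared regions and 47 related genes, and Jund made 5 genes, against 56.6% of all genes. Without replicate 3 there were 10 shared regions, and Fosl1 and Jun made 6 genes, against 50.0% of all genes. The background was 40.5% over genes of the same chromosomes and, chosen after the data were seen, 36.1% over genes no longer than Fosl2. Mean folds of the 5 shared regions with 1 replicate left out, also computed after the data were seen, ran from 4.34 to 6.07, both without replicate 2, at Fosb and Fosl2.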
